A study of Mus musculus with 8 samples.

Results

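The genes described here make, inactivate and transport prostaglandins, and their transcripts were compared between 2 fetal mouse vessels, the ductus arteriosus and the aorta. The list named 10 genes: the cyclooxygenases Ptgs1 and Ptgs2, the terminal synthases Ptges, Ptges2, Ptges3, Ptgis and Ptgds, the inactivating enzyme Hpgd, and the transporters Slco2a1 and Abcc4. A probe set (the group of short probes that reports 1 transcript on the array) was used where the platform annotation gave it exactly 1 gene symbol. This left 16 probe sets for 8 of the 10 genes, out of 34945 probe sets for 18193 genes. Both probe sets of Ptges3 also carried its pseudogene Ptges3-ps and were left out, and Ptgs1 was not analysed here because no probe set used was annotated to it.

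The ductus arteriosus joins the pulmonary artery to the aorta before birth and closes after it. Prostaglandin E2 relaxes the ductus, and cyclooxygenase inhibitors narrow it, which is why these drugs are given to close a ductus that persists after birth. The cyclooxygenases turn arachidonic acid into prostaglandin H2, and terminal synthases turn that into prostaglandin E2, D2 or prostacyclin. Signalling ends when a transporter carries the prostaglandin into a cell and 15-hydroxyprostaglandin dehydrogenase, the product of Hpgd, oxidises it.

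Total RNA from 4 ductus and 4 aorta samples was hybridised to 8 Affymetrix mouse arrays. Each sample was a pool of the vessel segments of up to 10 pups, all carried by 1 pregnant female and taken on gestation day 19. Strain was labelled CD88, the mice were described as CD88 wild type, and neither group was treated. The labels call the samples biological replicates and do not say whether a ductus pool and an aorta pool of 1 number came from the same mother. Pools of whole segments hold every cell type of the vessel wall and its surface, so fewer cells of a type and less RNA per cell cannot be told apart. Levels below are log2 values after RMA (robust multi-array averaging), and the level of 1 probe set cannot be set against that of another. Array medians ran from 4.36 to 4.42 and first quartiles from 2.74 to 2.86. As a check of the labels, the ductus transcription factor Tfap2b was at 7.47 to 7.69 on the ductus arrays and 2.23 to 2.87 on the aorta arrays.

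The 2 genes called encode the inactivating enzyme and a transporter of prostaglandins. Hpgd and Slco2a1 were lower in the ductus than in the aorta, by 2.69-fold and 2.16-fold, on every array of one vessel against every array of the other. For the prostaglandin D2 synthase Ptgds, 1 of 2 probe sets was called lower in the ductus, whereas the cyclooxygenase Ptgs2, both prostaglandin E synthases measured, the prostacyclin synthase and the exporter Abcc4 did not pass the test. Of the 8 genes, limma called 2, both higher in the aorta, where 2.06% of all genes tested were called. It called 0 higher in the ductus, where 1.80% of all genes were. At an unadjusted p under 0.05, 3 of the 8 had the aorta higher and 1 the ductus, against 9.19% and 6.94% of all genes. The median log2 difference, ductus minus aorta, was -0.18 over the 8 genes and -0.03 over all genes.

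The annotated start regions of 4 of the genes are shown because Hpgd, Slco2a1 and Ptgds lay lower in the ductus on every array, while Ptgs2 had a higher mean there. They run 5′ to 3′ on the gene's strand, from 250 bases before the RefSeq start to base 30 from it, in build GRCm38.p6. Capitals mark matches to 5 motifs searched on both strands.
Hpgd, chr8:56294302-56294581, strand +: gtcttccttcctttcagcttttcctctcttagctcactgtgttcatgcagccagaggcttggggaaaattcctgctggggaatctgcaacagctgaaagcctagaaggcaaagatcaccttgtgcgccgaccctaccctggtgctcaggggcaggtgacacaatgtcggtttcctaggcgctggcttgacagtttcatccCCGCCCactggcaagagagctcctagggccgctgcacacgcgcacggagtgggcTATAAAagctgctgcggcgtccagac
Slco2a1, chr9:103008237-103008516, strand +: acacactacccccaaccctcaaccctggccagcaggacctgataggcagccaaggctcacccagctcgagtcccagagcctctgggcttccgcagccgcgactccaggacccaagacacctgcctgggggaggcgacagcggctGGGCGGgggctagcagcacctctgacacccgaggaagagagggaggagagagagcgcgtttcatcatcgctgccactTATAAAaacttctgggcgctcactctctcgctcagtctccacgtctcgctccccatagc
Ptgds, chr2:25469720-25469999, strand -: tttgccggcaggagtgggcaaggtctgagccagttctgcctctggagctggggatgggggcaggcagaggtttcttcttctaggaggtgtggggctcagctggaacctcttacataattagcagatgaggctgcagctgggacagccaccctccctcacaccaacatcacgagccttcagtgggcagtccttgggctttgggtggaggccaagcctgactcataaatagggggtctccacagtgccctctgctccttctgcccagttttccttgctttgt
Ptgs2, chr1:150099781-150100060, strand +: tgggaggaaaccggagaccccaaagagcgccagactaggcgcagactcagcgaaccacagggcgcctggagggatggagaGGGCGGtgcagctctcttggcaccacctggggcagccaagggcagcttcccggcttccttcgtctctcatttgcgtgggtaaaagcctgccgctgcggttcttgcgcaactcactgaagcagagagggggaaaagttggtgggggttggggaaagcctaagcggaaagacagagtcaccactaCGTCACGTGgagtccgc
Hpgd and Slco2a1 each held the letters TATAAA, the spelling of the TATA box, on the gene's own strand. They lay 29 bases before the annotated start in Slco2a1 but past it, at base 5, in Hpgd. Among all 32851 windows of 280 bases, 13.1% held TATAAA. Hpgd and Slco2a1 also both held a GC box, spelled GGGCGG, as did 34.7% of all windows. In Slco2a1 it lay on the gene's own strand 106 bases before the start, and in Hpgd on the opposite strand 50 bases before it. Ptgs2 held a GC box 170 bases before the start, and CGTCA, the core of the cyclic AMP response element, at base 14 from it. That core was in 19.9% of all windows. It overlaps the E-box, spelled CACGTG, at base 17, which 6.79% of all windows held. The Ptgds window held no exact match to any of the 5, and near matches were not searched. The CCAAT box, found in 36.1% of all windows, was in none of these 4. A match describes the letters only, and no binding was measured. Whether the RefSeq starts are those used in these vessels was not tested.

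Ptgs2 encodes the inducible cyclooxygenase, which starts prostaglandin synthesis. Its main probe set read 4.81, 5.92, 5.80 and 4.05 in aorta replicates 1 to 4 and 5.99, 6.26, 5.78 and 6.74 in ductus replicates 1 to 4. The vessels overlapped: ductus replicate 3 lay below aorta replicates 2 and 3, and aorta replicates 1 and 4 were the low ones. The means were 5.14 ± 0.885 in the aorta and 6.19 ± 0.415 in the ductus (SD, n = 4 each). The log2 difference of 1.05 ± 0.399 (SE) had a 95% confidence interval of 0.15 to 1.94 and did not pass (adjusted p = 0.224). The value depended on the covariate. With the mean of 7 thymocyte markers it was 1.46 and passed (adjusted p = 0.0122). With the skeletal muscle mean it was 1.38 and did not pass (0.186). With the mesothelial or endothelial mean it turned to -0.59 (0.862) or -0.62 (0.865). The thymocyte markers averaged 4.91, 3.86, 3.35 and 6.69 on the aorta arrays, highest on replicate 4, where Ptgs2 was lowest. On the ductus arrays they averaged 7.47, 5.45, 6.16 and 3.85. Ductus replicate 4, the lowest there, had the highest Ptgs2 value. Ductus replicate 1 was the highest of all 8 arrays, yet its Ptgs2 value of 5.99 lay above every aorta array. Whether thymocytes bear on the Ptgs2 level was not tested. The second Ptgs2 probe set stayed between 2.03 and 2.42 on the 8 arrays, below every first quartile, and a signal above background cannot be claimed for it. Neither Ptgs2 probe set passed.

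Ptges, Ptges2 and Ptgis turn the cyclooxygenase product into prostaglandin E2 (both Ptges enzymes) and prostacyclin (Ptgis), and none of them passed the test. Ptges, the inducible microsomal enzyme, read 4.67, 4.45, 4.34 and 5.02 in the aorta and 5.01, 4.50, 5.27 and 5.10 in the ductus, with both vessels overlapping. Its log2 difference was 0.35 (95% confidence interval -0.09 to 0.80, adjusted p = 0.439). The other Ptges probe sets gave log2 differences of -0.08 and -0.05, and their means lay between 3.50 and 3.67, below every array median. The 3 probe sets do not share a direction.

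Ptges2, the second membrane-bound enzyme, read 5.27, 5.28, 5.68 and 5.54 in the aorta and 5.18, 4.83, 5.41 and 5.36 in the ductus. Its log2 difference was -0.25 (interval -0.60 to 0.11, adjusted p = 0.507). The vessels overlapped, and ductus replicate 2 was the lowest of the 8 arrays. Ptgis, the prostacyclin synthase of the vessel wall, read 10.26, 10.58, 10.22 and 10.30 in the aorta and 10.14, 10.16, 10.42 and 10.19 in the ductus. Its log2 difference was -0.11 (interval -0.38 to 0.16, adjusted p = 0.721), so on this scale the interval left out a difference of log2 0.5 in either direction. Each vessel was within an SD of 0.165 on this probe set.

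**Figure D1:**
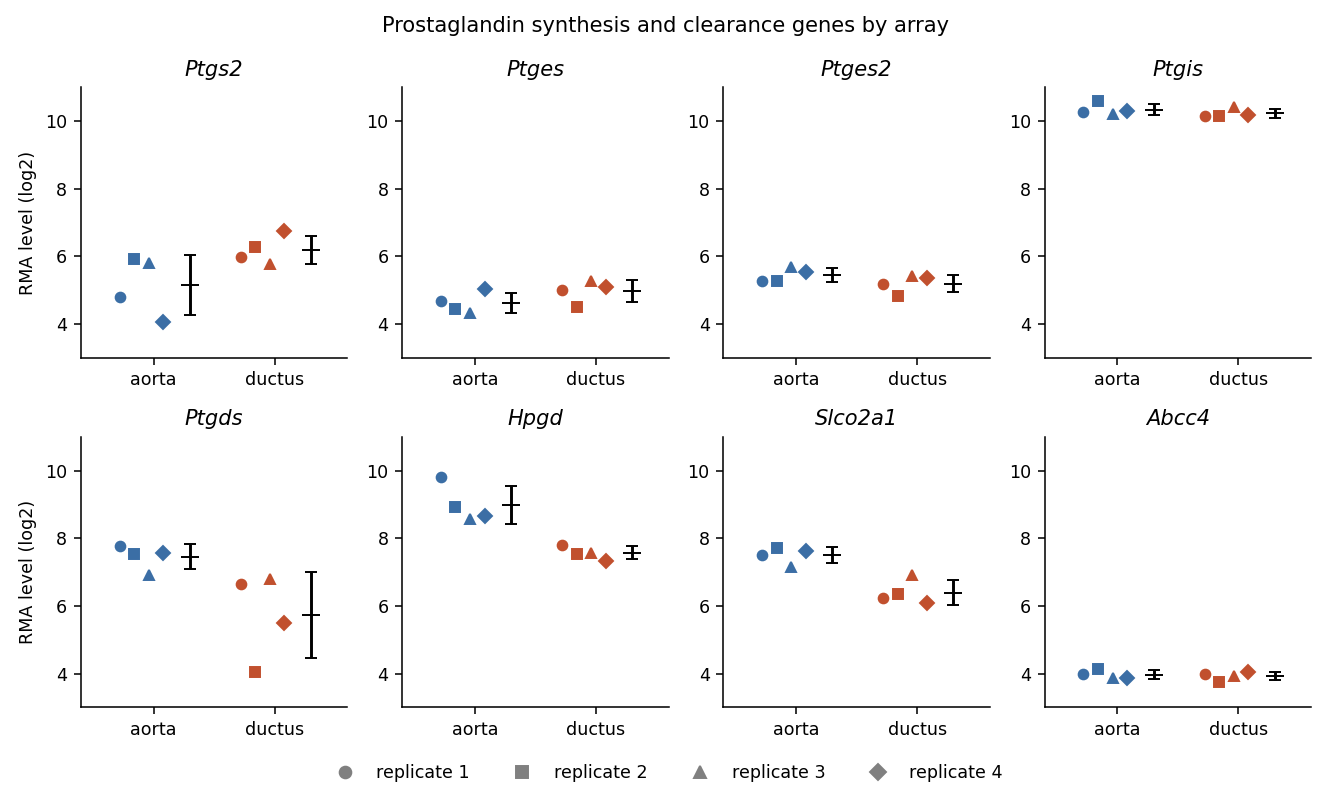
RMA level (log2, y axis) of the 8 measured genes on each aorta and ductus array, each gene by its probe set of highest mean. Symbols mark replicates and the bar beside them is the mean ± SD of 4 arrays. Hpgd, Slco2a1 and Ptgds have all 4 ductus arrays below all 4 aorta arrays, and Ptgds spreads from 4.05 to 6.80 in the ductus.

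Ptgds encodes lipocalin-type prostaglandin D2 synthase. Its brighter probe set, 1423859_a_at, read 7.77, 7.54, 6.93 and 7.58 in the aorta and 6.64, 4.05, 6.80 and 5.48 in the ductus. Every ductus array was lower than every aorta array, but ductus replicates 2 and 4 were far below replicates 1 and 3. The means were 7.45 ± 0.365 and 5.74 ± 1.27 (SD, n = 4 each). The gene did not pass, with a log2 difference of -1.71 ± 0.534 (interval -2.91 to -0.51, adjusted p = 0.134), the largest in size among the 8 genes. Without ductus replicate 2 it was -1.15 (adjusted p = 0.133).

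The dimmer Ptgds probe set, 1423860_at, showed the same order with less spread. It read 5.08, 4.85, 4.65 and 4.41 in the aorta and 3.66, 3.41, 4.04 and 3.94 in the ductus. In the fit of all probe sets it was called, at log2 -0.98 ± 0.182 (adjusted p = 0.0186). The call was lost without aorta replicate 2 (adjusted p = 0.0639) or ductus replicate 1 (0.062). With the mean of both probe sets, Ptgds passed narrowly (log2 -1.35, adjusted p = 0.0487). The ductus values of the dimmer probe set lay below every array median.

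Hpgd encodes the dehydrogenase that inactivates prostaglandins. Its probe set 1419905_s_at read 9.80, 8.93, 8.58 and 8.66 in the aorta and 7.81, 7.55, 7.57 and 7.34 in the ductus. The lowest aorta array was above the highest ductus array, and aorta replicate 1 stood highest. The means were 8.99 ± 0.561 and 7.57 ± 0.192 (SD, n = 4 each). The log2 difference was -1.43 ± 0.251 (interval -1.99 to -0.86, adjusted p = 0.0130). Without aorta replicate 1 it was -1.16 (adjusted p = 0.00415).

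The other Hpgd probe set, 1419906_at, followed the first on every array. It read 9.67, 8.67, 8.41 and 8.45 in the aorta and 7.73, 7.32, 7.36 and 7.22 in the ductus. In the fit of all probe sets both were called, at log2 -1.43 (adjusted p = 0.0137) and -1.40 (adjusted p = 0.0209). The annotation gives both probe sets the same sequence record. Those calls were less firm among all probe sets: without ductus replicate 4 the first missed (adjusted p = 0.0516), and without aorta replicate 2 or ductus replicate 2, 3 or 4 the second did (0.0549 to 0.0716).

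Slco2a1 encodes the prostaglandin transporter, which carries prostaglandins into cells. Its brightest probe set, 1420913_at, read 7.52, 7.71, 7.16 and 7.63 in the aorta and 6.24, 6.34, 6.91 and 6.09 in the ductus. Ductus replicate 3 came closest to the aorta, yet stayed below its lowest array. The means were 7.50 ± 0.246 and 6.39 ± 0.360 (SD, n = 4 each). The log2 difference was -1.11 ± 0.194 (interval -1.55 to -0.67, adjusted p = 0.0123). Among all probe sets it was called too (adjusted p = 0.0137), narrowly missing without aorta replicate 2 (0.0501).

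All 4 Slco2a1 probe sets had lower means in the ductus, and 2 were called among all probe sets. The largest called difference was that of 1420914_at, which read 6.48, 6.64, 5.95 and 6.78 in the aorta and 4.69, 5.29, 5.28 and 4.88 in the ductus (log2 -1.43 ± 0.206, adjusted p = 0.00481). Probe set 1444242_at read 5.99, 6.87, 5.74 and 6.12 in the aorta and 3.48, 4.48, 5.60 and 3.82 in the ductus, a log2 difference of -1.83 that just missed (adjusted p = 0.0512). Ductus replicate 3 again lay nearest the aorta, and without it the difference was -2.25 (adjusted p = 0.00659). The dimmest, 1450032_at, overlapped between the vessels (log2 -0.50, adjusted p = 0.299), with a ductus mean of 2.99, little above the first quartiles.

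Abcc4 encodes a multidrug resistance transporter that exports prostaglandins. Its single probe set read 4.00, 4.13, 3.87 and 3.86 in the aorta and 3.98, 3.75, 3.93 and 4.06 in the ductus. All 8 values were below their array medians and the vessels overlapped fully. The log2 difference was -0.04 (interval -0.29 to 0.22, adjusted p = 0.920). At this level a difference in the transcript could be hidden by background.

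**Figure D2:**
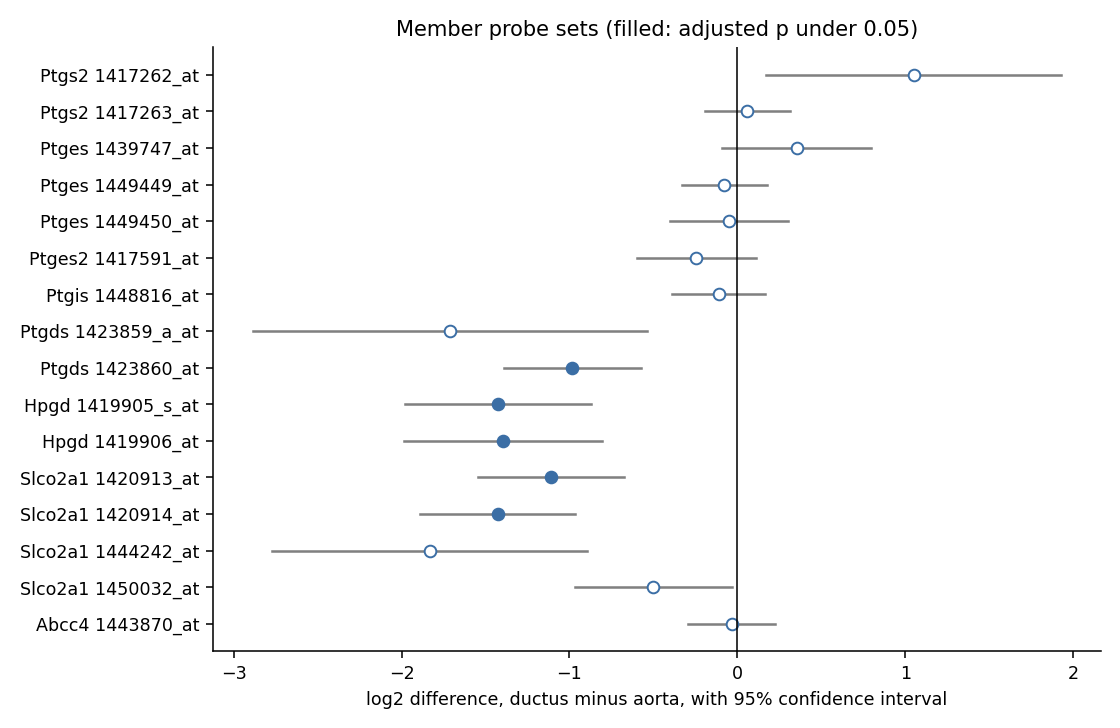
Log2 difference, ductus minus aorta (x axis), of each of the 16 probe sets with its 95% confidence interval from the fit of all probe sets. Filled points are the 5 probe sets called at an adjusted p under 0.05, all of them below 0 and belonging to Ptgds, Hpgd and Slco2a1.

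Counted over probe sets, 5 of 16 were called higher in the aorta, where 1.47% of all probe sets were, and 0 higher in the ductus, where 1.39% were. At an unadjusted p under 0.05, 8 had the aorta higher and 1 the ductus, against 8.08% and 6.54% of all probe sets. In 7 of the 16 every ductus value was below every aorta value, against 5.42% of all probe sets. In 0 was every ductus value above, against 4.56%, and 9.98% of all probe sets had no overlap in either direction. Probe sets of 1 gene share their transcript, so these counts are not of independent items. By gene, the groups did not overlap in 3 of 8, all with the ductus below, as in 6.06% of all genes. The reverse order was seen in 0 of 8 and in 5.23% of all genes, and 11.3% of all genes had no overlap in either direction.

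Each called gene was set beside the 3 genes nearest to it in pattern, by the root mean square difference of 8 array values after centring. Nearest to Hpgd were Nfe2l3, a transcription factor of the NRF family, at 0.141, the membrane glycoprotein gene Gpm6a at 0.153 and the basement membrane collagen Col4a3 at 0.158. The median distance of all genes from Hpgd was 0.819. Nearest to Slco2a1 were the protease Bace2 at 0.142, Cracr2b, a regulator of calcium release-activated channels, at 0.158 and the death ligand Tnfsf10 at 0.166, against a median of 0.632. Their log2 differences were -1.55 to -1.13, which the choice by likeness to Hpgd and Slco2a1 fixes.

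Most mesothelial and endothelial markers also had lower means in the ductus. Of 10 mesothelial markers, 7 were called, all higher in the aorta, where 2.06% of all genes were called. In 8 every ductus array was below every aorta array, as in 6.06% of all genes. The summed level of the 10 was between log2 11.38 and 12.69 in the aorta and between 10.10 and 10.83 in the ductus. Of 14 endothelial markers, 3 were called, Cldn5, Tek and Pecam1, all higher in the aorta, and the other 11 did not pass. The ductus mean was lower for 12 of the 14. At an unadjusted p under 0.05, 10 had the aorta higher and 1 the ductus, against 9.19% and 6.94% of all genes. In 6 every ductus array was below every aorta array, as in 6.06% of all genes. The summed level was between log2 12.87 and 13.24 in the aorta and between 12.45 and 12.67 in the ductus. Erg, an endothelial transcription factor of the same list, lay the other way, with every ductus array above every aorta array (log2 0.73, adjusted p = 0.0595). Robo4 was at log2 0.07, Cdh5 at -0.20 and Ptprb at -0.09. The mean of 10 smooth muscle markers was 8.92 to 9.47 in the aorta and 9.96 to 10.44 in the ductus. Of the 10, 5 were called, all higher in the ductus, as were 1.80% of all genes. No marker of these lists lay below the first quartile on every array.

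Array by array, the mesothelial mean was 9.09, 8.24, 7.70 and 8.57 in the aorta and between 6.49 and 7.10 in the ductus. Aorta replicate 1 was the highest for the mesothelial mean, for Hpgd and for Ptgds. The endothelial mean was 7.91, 7.95, 7.65 and 7.99 in the aorta and 7.45, 7.31, 7.48 and 7.31 in the ductus. Aorta replicate 3 was the lowest aorta array for both marker means and for Hpgd, Slco2a1 and Ptgds. Ductus replicate 3 was the highest ductus array for the endothelial mean, Slco2a1 and Ptgds, and ductus replicate 1 for the mesothelial mean and Hpgd. Other arrays differed in order. Slco2a1 was highest on aorta replicate 2 (7.71) and the endothelial mean on aorta replicate 4 (7.99). On aorta replicate 4 the mesothelial mean was 8.57, while Hpgd read 8.66, close to its lowest aorta value of 8.58. Ptgds was lowest on ductus replicate 2 (4.05) and the mesothelial mean on ductus replicate 4 (6.49). With the mesothelial mean as a covariate, the log2 difference was -0.28 for Hpgd (adjusted p = 0.889), -0.58 for Slco2a1 (0.734) and 0.16 for Ptgds (0.981). With the endothelial mean it was -0.83 (0.721), -0.21 (0.910) and 0.62 (0.907). Between the vessels lay 79.3% of the variance of the mesothelial mean and 83.7% of that of the endothelial mean, so vessel and marker level cannot be told apart in 8 arrays.

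**Figure D3:**
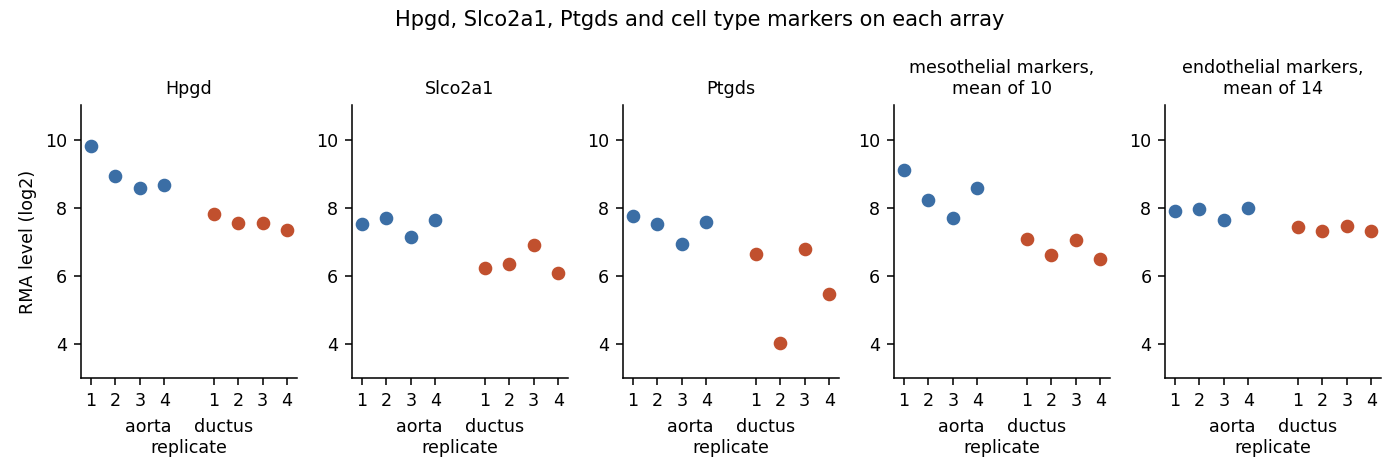
RMA level (log2, y axis) on the 4 aorta (blue) and 4 ductus (red) arrays of Hpgd, Slco2a1, Ptgds, the mean of 10 mesothelial markers and the mean of 14 endothelial markers. All 5 are higher on every aorta array than on every ductus array, and aorta replicate 1 stands highest for Hpgd, Ptgds and the mesothelial mean.

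The rest of the pathway was followed in 6 lists with 63 measured genes, of which 3 were called, all with the ductus higher, as were 1.80% of all genes. At an unadjusted p under 0.05, 8 had the aorta higher and 10 the ductus, against 9.19% and 6.94% of all genes. The median log2 difference was -0.04. Of 15 genes listed for the release of arachidonic acid or its control, 0 were called, while at an unadjusted p under 0.05 the aorta was higher for 4 and the ductus for 2. The smallest p was that of Abhd6, a monoacylglycerol hydrolase, at log2 -0.42 (adjusted p = 0.0725). Of 7 other synthases and ketoreductases 0 were called, while unadjusted the aorta was higher for 2 and the ductus for 1. Akr1c18, a hydroxysteroid dehydrogenase of the aldo-keto reductase family, differed by log2 -1.22 (adjusted p = 0.0796), and read 4.73 in aorta replicate 1 against 5.89 to 6.26 in the other aorta arrays.

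Among 8 further genes of breakdown and transport, Slco3a1 was the 1 called. It belongs to the transporter family of Slco2a1 and differed in the opposite direction, with a mean of 9.33 ± 0.135 in the aorta and 9.82 ± 0.087 in the ductus (log2 0.50 ± 0.107, adjusted p = 0.0342). The groups did not overlap, with 9.73 as the lowest ductus and 9.46 as the highest aorta value. Its call held without aorta replicate 4 (adjusted p = 0.0390) and was lost on leaving out any other single array (0.0615 to 0.103). Counting these, the call was lost in 15 of 25 alternatives. Among them were the mean of its probe sets (0.126), its probe set of largest interquartile range (0.054), the replicate block (0.117) and each marker covariate (0.0641 to 0.475).

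Of 9 prostanoid receptors, Ptger4, the EP4 receptor through which prostaglandin E2 relaxes the ductus, was called higher in the ductus (log2 0.88, adjusted p = 0.00906). With its probe set of largest interquartile range the difference was 1.91 (adjusted p = 0.000422). Its call was lost in 4 of 25 alternatives, with the replicate block (adjusted p = 0.05) and with the skeletal muscle (0.0522), endothelial (0.111) and mesothelial (0.140) means as covariates. At an unadjusted p under 0.05, 3 of the 9 had the ductus higher and 0 the aorta, against 6.94% and 9.19% of all genes. Besides Ptger4 these were Ptgir (log2 1.06, adjusted p = 0.0902) and Ptger1 (log2 0.31, adjusted p = 0.271), both overlapping between the vessels. Ptger1 read 2.60 to 3.35, near the first quartiles, so a signal above background cannot be claimed for it.

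Of 9 lipoxygenase and epoxygenase genes 0 were called, and unadjusted 1 passed in each direction. Ephx2, the soluble epoxide hydrolase, came nearest (log2 -0.59, adjusted p = 0.0755). Of 15 known regulators of Ptgs2 and Ptges, the immediate early factor Egr1 was the 1 called. It read 10.72, 10.82, 10.68 and 10.75 in the aorta and 11.16, 11.19, 11.04 and 11.18 in the ductus, without overlap. Its log2 difference of 0.40 ± 0.093 was small and passed narrowly (adjusted p = 0.0477). The call was lost on leaving out any 1 array (0.0722 to 0.128) and, counting these, in 18 of 25 alternatives.

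**Figure D4:**
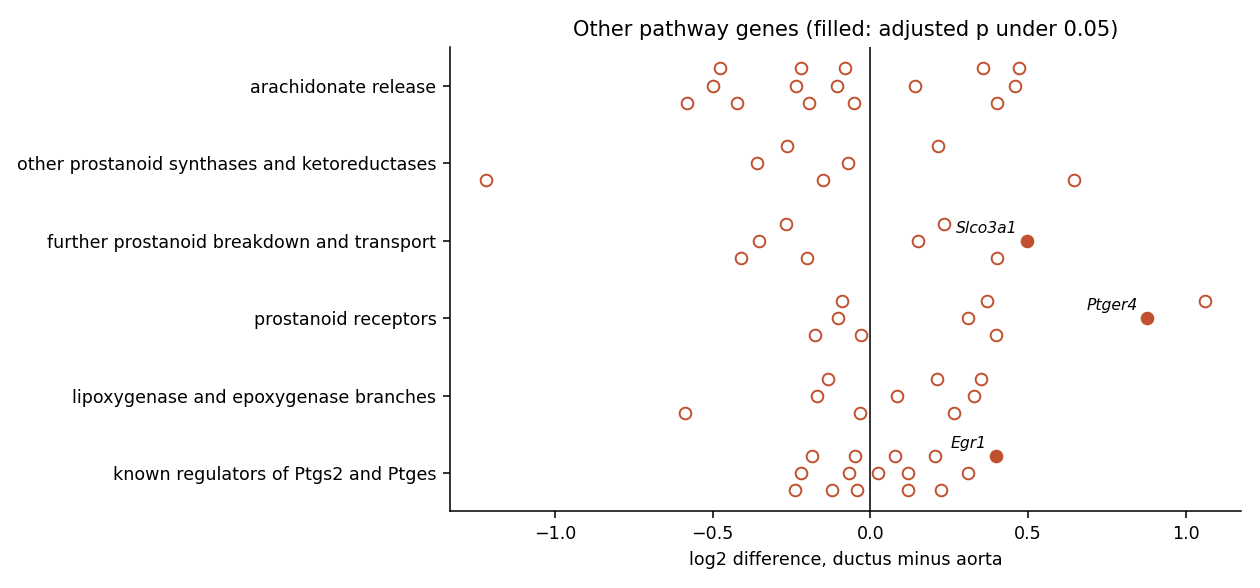
Log2 difference, ductus minus aorta (x axis), of 63 other pathway genes in 6 lists, 1 point a gene and spread vertically only to separate points. The filled points are the 3 called genes, Slco3a1, Ptger4 and Egr1, all above 0.

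Leaving out each array in turn, the calls of Hpgd and Slco2a1 held in all 8 fits, with adjusted p of 0.00415 to 0.0480 and 0.00402 to 0.0456. Their log2 differences ran from -1.56 to -1.16 and from -1.28 to -1.01. Ptgs2 ran from 0.68 to 1.31 and Ptgds from -2.06 to -1.15, and neither passed in any of them (adjusted p from 0.158 to 0.410 and from 0.0806 to 0.271).

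**Figure D5:**
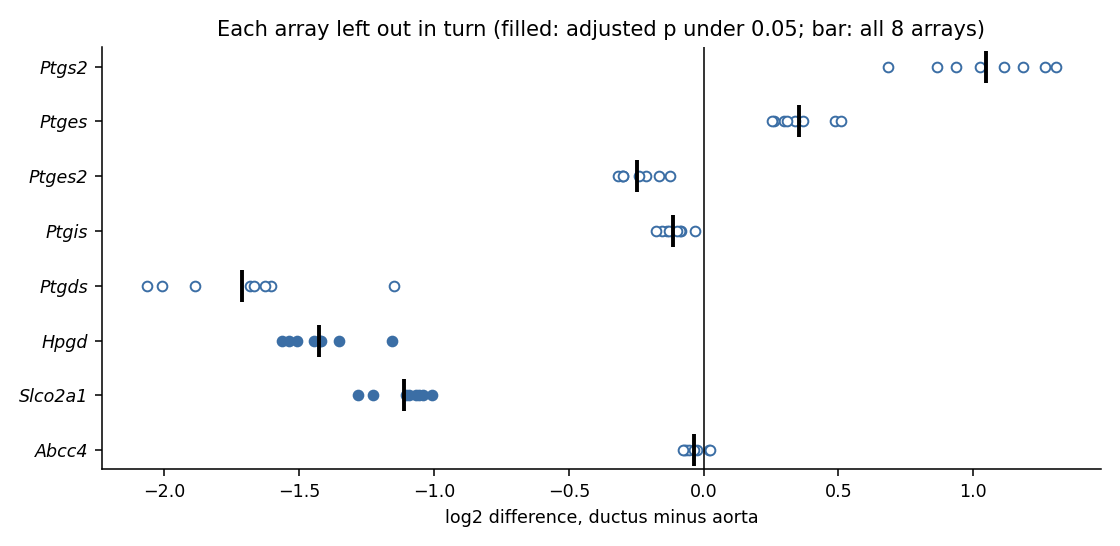
Log2 difference, ductus minus aorta (x axis), of each of the 8 genes with 1 array left out at a time (points) and with all 8 arrays (bar). Points are filled where the adjusted p was under 0.05, which was so in all 8 fits for Hpgd and Slco2a1 and in none for the other genes.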

How the data were processed

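The authors deposited 1 table of log2 values for 45101 probe sets and 8 arrays, made with Partek 6.6 and RMA according to the submitters' processing notes. Their settings are not given in the sources used. No detection call was used, so a level near the first quartile is not shown to be above background. The number of arrays limits the precision.

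Control probe sets (64), unlisted ones (9160) and those with several symbols (932) were left out, and symbols were updated by gene ID. Each gene was represented by its probe set of highest mean. Ductus minus aorta was fitted over all 18193 genes, and again over all 34945 probe sets, with limma 3.58.1 in R 4.3.3 (lmFit, eBayes, two-sided, no covariate). P-values were adjusted by the Benjamini-Hochberg method over each whole table, and called under 0.05. Adjusted p-values are those of the gene fit unless the fit of all probe sets is named. A difference carries limma's standard error and a level its SD.

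The genes, lists and tests were chosen with earlier results of these data known. Named were all members, called genes of the other lists (or the 1 of smallest p), and the 3 genes nearest each called member, leaving out clone names and genes of the X and Y chromosomes. Start regions and gene IDs came from RefSeq (GRCm38.p6), which held windows for 9 of the 10 genes. Of the other 10 marker lists, 5 of 10 smooth muscle and 2 of 7 lung epithelial markers were called, each higher in the ductus. That direction was called for 1.80% of all genes. Limma called 0 of the 8 fibroblast, 8 skeletal muscle, 7 thymocyte, 6 brown adipocyte, 8 macrophage, 7 mast cell, 6 platelet and 4 erythroid markers, with 3, 1, 0, 0, 2, 0, 0 and 0 at an unadjusted p under 0.05. The 3 fibroblast and 2 macrophage markers had the aorta higher, the 1 skeletal muscle marker the ductus, against 9.19% and 6.94% of all genes. The fibroblast mean was 9.89 to 10.17 in the aorta and 9.73 to 9.81 in the ductus. Some marker levels varied between arrays of 1 vessel. On ductus replicate 3 the skeletal muscle mean was 6.44 and the lung marker Sftpc 9.56, against 3.87 to 4.20 and 4.25 to 6.93 on the other ductus arrays. The thymocyte mean ran from 3.35 to 6.69 in the aorta and from 3.85 to 7.47 in the ductus. Whether neighbouring tissue entered the pools was not tested. The gene fit was tested on simulated arrays of 18193 genes, 200 of them changed, with noise drawn independently for each gene. There it recovered 75% of changes of log2 1 and 96% of changes of log2 2. Of its 179 calls, 8 were false. The simulation held no variation shared between genes, so it does not give the error rate of the calls above. Alternatives covered the choice of probe set, scaling, low values, the variance prior, weights for arrays, blocking on replicate number, the threshold, marker covariates and leaving out each array.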

Additional observations from a re-analysis of the deposited data

Results flagged for a closer look

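Of the 32 groups of 4 arrays tested over the member probe sets, 2 had a single array far from the others, and chance gives about 1 in 20. In the dimmest Slco2a1 probe set, 1450032_at, aorta replicate 2 read 4.16 while the other aorta arrays read 3.22 to 3.32, so the gap took 0.891 of the group's range. In the Ptges probe set 1449450_at, aorta replicate 4 read 3.83 against 3.61 to 3.64, with a gap of 0.861 of the range. Both probe sets lay below the array medians and neither was called.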

How the results depend on the processing

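Hpgd and Slco2a1 were lower in the ductus under all 25 alternatives and each kept its call in 21. The mesothelial and endothelial means differ between the vessels, so fits with them have little left to test. With the mesothelial mean, 0 member genes and 0 member probe sets were called higher in the aorta, all genes gave 41 calls for the ductus and 10 for the aorta, and the other pathway genes 0 for the ductus. With the endothelial mean these were 0, 0, 31, 2 and 0. With the skeletal muscle mean, 1 member gene was called higher in the aorta, Slco2a1 (Hpgd: adjusted p = 0.0586), all genes gave 206 and 243, and the other pathway genes 0 and 1. With the thymocyte mean, 1 member gene and 1 member probe set were called higher in the ductus, both of Ptgs2, and 1 other pathway gene was. The cause of these changes was not tested.

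At an adjusted p under 0.01, 0 member genes, 1 member probe set (Slco2a1), 170 and 134 genes and 1 other pathway gene for the ductus were called, and under 0.10, 665 genes and 3 other pathway genes for the aorta. With only genes above a mean of log2 5, an intensity trend or array weights, 1 other pathway gene was called for the aorta in each. Leaving out 1 array gave 2 to 5 member probe sets for the aorta, 201 to 419 genes for the aorta and 233 to 289 for the ductus, and 1 to 3 and 0 to 1 other pathway genes. Member probe sets for the aorta numbered 2 without aorta replicate 2 and 3 without ductus replicate 4, and genes for the aorta 201 without aorta replicate 2, 239 without ductus replicate 1, 230 without ductus replicate 2 and 214 without ductus replicate 4.

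With the replicate block, 1 member gene (Hpgd, adjusted p = 0.0167; Slco2a1, 0.0792) and 3 member probe sets were called for the aorta, 208 and 195 genes, and 0 other pathway genes for the ductus. Deviations of same-numbered arrays correlated at -0.227 to -0.0676 over genes, so the numbers are not shown to pair the samples.

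Signs turned only in differences that had not passed. With the mesothelial mean, Ptgs2 was at -0.59, Ptgds at 0.16, Abcc4 at 0.0288, the second Ptgs2 probe set at -0.0388 and Ptges 1449450_at at 0.25. With the endothelial mean, Ptgs2 was at -0.62, Ptgds at 0.62, Ptgis at 0.19, Abcc4 at 0.12 and Ptges 1449450_at at 0.41. Leaving out arrays, Abcc4 ranged from -0.0784 to 0.0245, the second Ptgs2 probe set from -0.006 to 0.12, Ptges 1449449_at from -0.12 to 0.0007 and Ptges 1449450_at from -0.140 to 0.0851. Filters on low values left out Abcc4 and dim probe sets, which then have no value.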
